A study of Mus musculus with 18 samples.

Results

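Small RNA sequencing of kidneys from mice with diabetic nephropathy (DN) was compared with that of control kidneys. The comparison used 12 of the 18 libraries, 6 labelled control and 6 labelled DN, taken by their labels, and the 735 mouse miRNA names (1 row kept for each) among 1534 table entries. Control mice were C57BL/6J and DN mice were C57BL/KsJ, and both groups received 0.9% saline. The other 6 libraries, from C57BL/KsJ mice treated daily with 10 mg/kg of germacrone, a sesquiterpene, were not compared here. Strain and disease differed together between the groups, so their contributions cannot be told apart. The labels give neither the age, the sex and the genotype of the mice nor how diabetes arose, and nothing in them states that each library is a separate animal, so the tests measure the spread between these libraries.

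MicroRNAs are short RNAs that guide the silencing machinery to messenger RNAs, chiefly through the seed, bases 2 to 8 of the mature strand. Each hairpin precursor gives a 5p and a 3p arm, and miRNAs that share a seed can recognise overlapping sets of targets. In the kidney, miR-192, miR-194, miR-204 and the miR-30 family are abundant in tubular and glomerular epithelium, miR-21 is known for its rise in injury and fibrosis, and miR-142, miR-150, miR-155 and miR-223 mark blood-derived leukocytes.

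Mature sequences were taken from RefSeq (build GRCm38.p6), in which 356 of the 424 tested names (84.0%) had an entry. The miRNAs on which the comparison turned are printed 5′ to 3′ with the seed in capitals, except miR-150-5p, which had no entry. The first set had higher levels in the DN group, and miR-211-5p is shown because it carries the seed of miR-204-5p.
miR-204-5p: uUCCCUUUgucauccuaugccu
miR-211-5p: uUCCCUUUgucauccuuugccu
miR-802-5p: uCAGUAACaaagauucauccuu
miR-802-3p: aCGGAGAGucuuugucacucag
miR-196a-2-3p: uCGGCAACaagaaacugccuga
miR-203b-3p: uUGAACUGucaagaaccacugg
miR-21a-5p: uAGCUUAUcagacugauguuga

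In the second set, miR-193a-3p and miR-708-5p had lower levels in the DN group with and without DN 2. The others, apart from the seed partners shown beside them, had lower levels only without DN 2, or high levels that DN 2 alone carried.
miR-146a-5p: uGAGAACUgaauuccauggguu
miR-146b-5p: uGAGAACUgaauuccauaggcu
miR-193a-3p: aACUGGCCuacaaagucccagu
miR-193b-3p: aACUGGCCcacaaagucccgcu
miR-708-5p: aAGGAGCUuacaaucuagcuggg
miR-28a-5p: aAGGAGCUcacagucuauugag
miR-155-5p: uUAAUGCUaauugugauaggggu
miR-142a-3p: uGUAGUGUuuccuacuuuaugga
miR-223-3p: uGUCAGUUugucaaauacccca

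On GRCm38, miR-204-5p lies at chr19:22750610-22750631 (plus strand) in an intron of Trpm3, and miR-211-5p at chr7:64205831-64205852 (plus strand) in an intron of the related channel gene Trpm1. The arms of miR-802 lie at chr16:93369737-93369758 and chr16:93369775-93369796 (plus strand), outside annotated host genes. Mature miR-196a-2-3p is encoded at chr15:102973401-102973422 (plus strand) in an intron of Hoxc5, and miR-203b-3p at chr12:112130887-112130908 on the minus strand, opposite the miR-203 hairpin. For miR-21a-5p the position is chr11:86584120-86584141 (minus strand), over an exon of Vmp1, and for miR-146a-5p it is chr11:43374435-43374456 (minus strand). The miR-193 pair lies at chr11:79712009-79712030 (miR-193a-3p) and chr16:13449570-13449591 (miR-193b-3p), both on the plus strand, and miR-223-3p lies at chrX:96242884-96242905 (plus strand). The annotation was GENCODE M21.

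Depth was similar between the groups, at 3700672 to 6654035 estimated counts per control library and 3645173 to 7239343 per DN library, of which the mouse names held 80.91% to 83.32% and 81.31% to 85.67%. All 8 arms chosen as markers of kidney were detected, and their summed level was 144000 to 226000 CPM (the share of a library's counts, scaled by edgeR's TMM factors) in control libraries, 157000 to 280000 in 5 DN libraries and 81500 in DN 2. DN 2 stood apart: its median Spearman correlation with the rest of its group was 0.887, and it held the highest value of the 12 libraries for 111 and the lowest for 89 of 424 tested miRNAs (47.2%). DN 3 (0.933) and control 2 (0.944) were the next lowest, against 0.959 to 0.969 for other control and 0.975 to 0.981 for other DN libraries. Both DN 2 (0.903) and DN 3 (0.959) had a higher median correlation with the control group than with their own. Results are therefore given with and without DN 2, and calls gained when DN 3, or control 2 and DN 3, were also left out are named.

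With all 12 libraries, none of the 424 tested miRNAs passed edgeR's quasi-likelihood test at an adjusted p of 0.05 (0.0% called), and 23 had an unadjusted p under 0.05 (5.42%), 16 of them higher in DN (3.77%) and 7 lower (1.65%). DESeq2 called 2, both higher: miR-204-5p (DESeq2 adjusted p = 0.00253) and miR-802-5p (DESeq2 adjusted p = 0.00338). Without DN 2, 3 of 427 passed (0.703%): miR-204-5p rose, and miR-146a-5p and miR-150-5p fell. Of 47 with an unadjusted p under 0.05 (11%), 33 were higher (7.73%) and 14 lower (3.28%). The median log2 fold change of all tested miRNAs was 0.10 with DN 2, where 61.8% were higher and 38.2% lower, and −0.02 without it, where 47.5% were higher and 52.5% lower. Scaling by library size instead of TMM lowered the median log2 fold change by 0.12 with DN 2 and 0.14 without it.

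**Figure D1:**
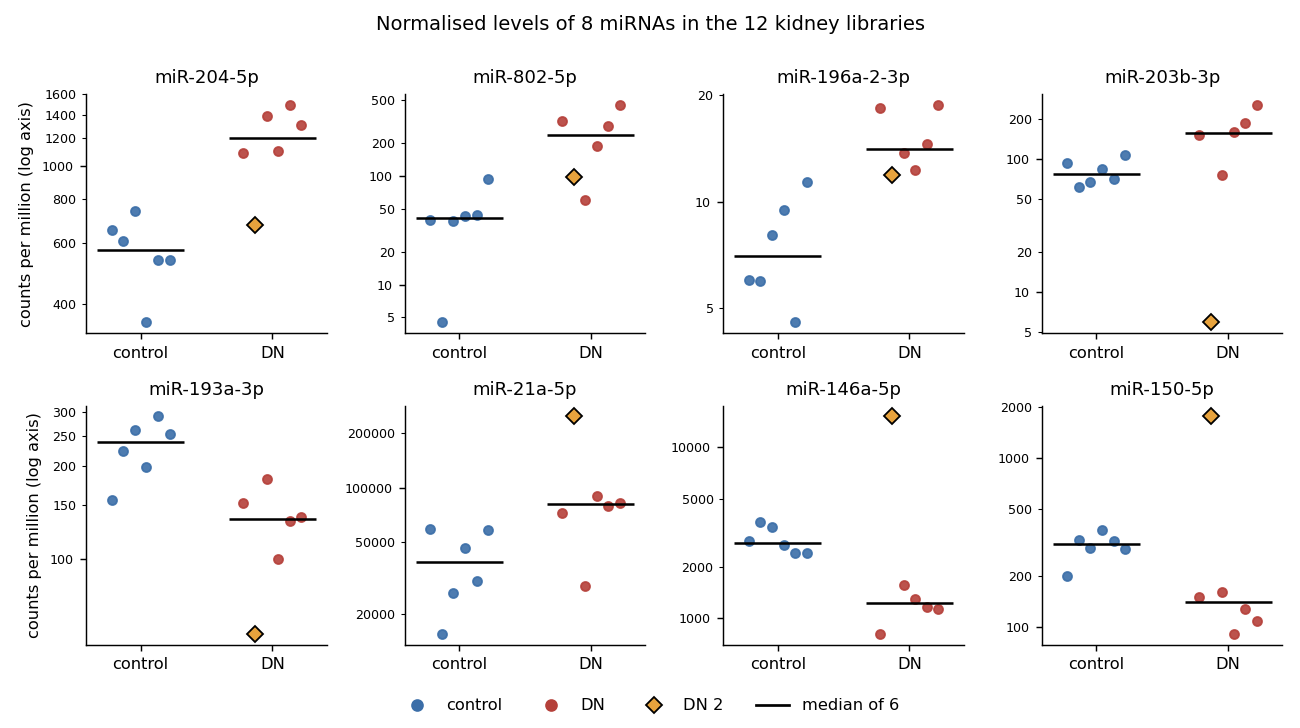
Normalised level of 8 miRNAs (CPM, log axis) in each of the 6 control and 6 DN libraries; dots are libraries, the orange diamond is DN 2 and the bar is the median of 6. For miR-204-5p, all DN libraries other than DN 2 lie above every control library; for miR-146a-5p and miR-150-5p they lie below every control library while DN 2 lies far above.

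The clearest rise was that of miR-204-5p, an epithelial miRNA also abundant in retinal pigment epithelium. Its level ran from 353.9 through a median of 572.2 to 741.5 CPM in the 6 control libraries and from 676.3 through 1204 to 1491 CPM in the 6 DN libraries. Only DN 2, at 676.3 CPM, fell within the control range; the other 5 DN libraries (1087 CPM or more) did not overlap the control group. The DN group was higher by a log2 fold change of 1.04 (SE 0.233, edgeR adjusted p = 0.235) with DN 2 and 1.15 (SE 0.184, edgeR adjusted p = 0.00694) without it, a 2.22-fold rise with a 95% interval of 0.75 to 1.55 on the log2 scale. The other arm of its hairpin, miR-204-3p, was 1 higher on the log2 scale with DN 2 and 1.15 without it but missed the threshold (edgeR adjusted p = 0.367 without DN 2). The seed partner miR-211-5p was 0.43 higher with DN 2 and 0.53 without it (SE 0.451, edgeR adjusted p = 0.67), at control levels of 1.895 to 6.498 CPM.

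Large differences were measured for both arms of miR-802, a miRNA of liver and kidney known for its rise in the liver of obese mice. Control libraries held 4.481 to 93.73 CPM of miR-802-5p (median 40.81) and DN libraries 60.18 to 447.4 CPM (median 239.7). All 6 DN values lay above those of 5 control libraries, and the sixth, control 6 at 93.73 CPM, exceeded only DN 3 (60.18 CPM). DN 2, at 96.8 CPM, was just above control 6. The log2 fold change was 2.43 (SE 0.566, edgeR adjusted p = 0.235) with DN 2 and 2.58 (SE 0.577, edgeR adjusted p = 0.0924) without it, so it missed the threshold in both. DESeq2 called it in both (DESeq2 adjusted p = 0.00338 and 0.000556). Among the alternative settings run, it passed in 3 of 27 that started from 12 libraries and 9 of 25 that started without DN 2. Without DN 2 and DN 3 the log2 fold change was 2.83 (edgeR adjusted p = 0.0134), and without control 2, DN 2 and DN 3 it was 2.59 (edgeR adjusted p = 0.00102). The 3p arm moved alike from lower levels: miR-802-3p was 0 to 7.592 CPM in control (median 2.165) and 1.343 to 52.12 CPM in DN libraries (median 23.79). DN 3, at 1.343 CPM, and DN 2, at 6.517 CPM, were within the control range. Its log2 fold change was 3.13 with DN 2 and 3.32 without it (SE 0.94, edgeR adjusted p = 0.207), and 3.63 (edgeR adjusted p = 0.0349) without DN 2 and DN 3. A difference of similar size was that of miR-12206-5p, at 0 to 6.716 CPM in control libraries, 9.672 to 38.82 CPM in 5 DN libraries and 0 CPM in DN 2. It was 2.9 higher on the log2 scale with DN 2 (edgeR adjusted p = 0.555), 3.16 without it (edgeR adjusted p = 0.153) and 3.38 (edgeR adjusted p = 0.0413) without DN 2 and DN 3.

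One miRNA separated the groups with every library included (0.236% of those tested). This was miR-196a-2-3p, an arm of a hairpin within the HoxC cluster, at 4.565 to 11.39 CPM (median 7.039) in control and 11.88 to 18.73 CPM (median 14.13) in DN libraries. The gap between the highest control and the lowest DN library, DN 2, was narrow, and the test was not passed: the log2 fold change was 0.98 (SE 0.32, edgeR adjusted p = 0.555) with DN 2 and 1.02 (SE 0.299, edgeR adjusted p = 0.207) without it. Without DN 2, on CPM scaled by the TMM factors of all 12 libraries, 6 of 427 separated the groups (1.41%). Among them, 2 were lower (0.468%, described with the leukocyte miRNAs). The 4 higher (0.937%) were miR-196a-2-3p, miR-204-5p, miR-1843b-5p and miR-12206-5p. Of these, miR-1843b-5p was 122.7 to 146.4 CPM in control and 153.1 to 199.8 CPM in 5 DN libraries, with DN 2 at 100.6 CPM, and its log2 fold change was 0.30 with DN 2 and 0.40 (edgeR adjusted p = 0.346) without it. A further miRNA, miR-203b-3p, was 62.23 to 107.4 CPM in control libraries (median 77.23). In DN it was 76.3 CPM in DN 3, 153 to 255.2 CPM in 4 libraries and 5.942 CPM in DN 2, so both DN 2 and DN 3 departed from their group. For miR-203b-3p the log2 fold change was 0.78 with DN 2, 1.02 (SE 0.267, edgeR adjusted p = 0.153) without it and 1.21 (edgeR adjusted p = 0.0102) without DN 2 and DN 3. The value for miR-203-3p, from the hairpin on the opposite strand, was −0.01 with DN 2 and 0.12 (SE 0.251) without it.

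The 2 miRNAs that fell without DN 2 are both made by leukocytes. miR-146a-5p, induced by NF-kB signalling and known to restrain it, ran from 2389 through a median of 2754 to 3656 CPM in control libraries and from 808.8 through 1225 to 15220 CPM in DN libraries. The 5 DN libraries other than DN 2 (at most 1561 CPM) all lay below the control range, and DN 2 lay above it. Its log2 fold change was 0.28 (SE 0.654, edgeR adjusted p = 0.964) with DN 2 and −1.29 (SE 0.186, edgeR adjusted p = 0.00628) without it, a 2.45-fold fall. miR-150-5p, a miRNA of mature lymphocytes, was 200.4 to 375.4 CPM in control (median 308.6), 91.95 to 162.8 CPM in the same 5 DN libraries and 1752 CPM in DN 2. Here too the 5 lay below and DN 2 above every control library. The log2 fold change was 0.40 (SE 0.674, edgeR adjusted p = 0.964) with DN 2 and −1.24 (SE 0.211, edgeR adjusted p = 0.0109) without it. The call on miR-150-5p was lost when DN 6 was also left out (edgeR adjusted p = 0.0647), and that on miR-146a-5p when the 6 treated libraries joined the fit (edgeR adjusted p = 0.208).

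The other tested leukocyte miRNAs were also highest in DN 2, but none of them separated the remaining DN libraries from control. Of 15 in the table, 8 were tested; with DN 2 all 8 were higher, with a median log2 fold change of 1.02, and without DN 2, 7 were lower and 1 was higher, with a median of −0.48 (all tested miRNAs, −0.02). No member was at 0 in all 12 libraries. The summed level of the 15 was 4130 to 5430 CPM in control libraries, 2130 to 3170 CPM in 5 DN libraries and 37200 CPM in DN 2. A large part of this sum was miR-146a-5p, at 2389 to 3656 CPM in control, 808.8 to 1561 CPM in the 5 DN libraries and 15220 CPM in DN 2. The sum therefore does not show a fall of the list as a whole. Neutrophil and monocyte miR-223-3p was 78.66 to 197.4 CPM in control, 57.82 to 170.9 CPM in 5 DN libraries and 6717 CPM in DN 2. Its log2 fold change was 3.31 with DN 2 and −0.20 (SE 0.335, edgeR adjusted p = 0.83) without it, so the groups differed through DN 2 alone. miR-142a-3p, made throughout the blood lineage, went from 1.5 to −0.79 (DN 2 at 2139 CPM, control at most 319.7 CPM) and miR-155-5p, of activated lymphocytes and macrophages, from 0.98 to −0.62 (DN 2 at 1665 CPM, control at most 252.9 CPM). Without DN 2 and DN 3, miR-155-5p was −1.07 (edgeR adjusted p = 0.0349). miR-146b-5p, which shares the seed of miR-146a-5p, ran from 165 to 351.3 CPM in control libraries; DN 2 held 2754 CPM and its 5 companions 164.3 to 304.7 CPM. These 5 lay within or just below the control range, and the log2 fold change was 1.5 with DN 2 and 0.02 (SE 0.219) without it. Sequencing of whole kidney RNA cannot tell fewer cells of a type from less of the miRNA per cell.

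**Figure D2:**
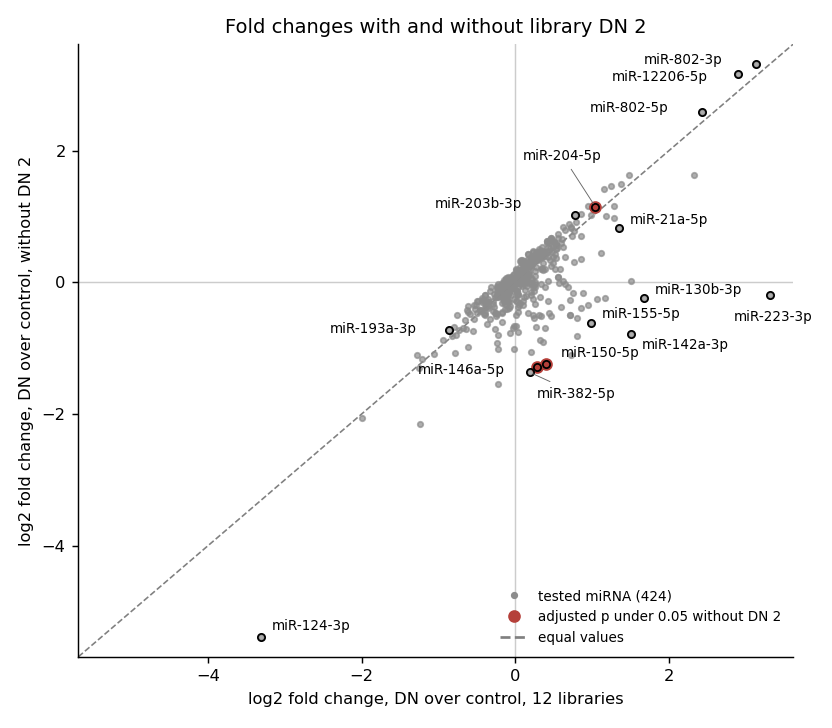
Log2 fold change (DN over control) of the 424 miRNAs tested in both fits, with all 12 libraries (x axis) and without DN 2 (y axis); red dots passed an adjusted p of 0.05 without DN 2 and the dashed line marks equal values. The leukocyte miRNAs miR-223-3p, miR-142a-3p, miR-155-5p, miR-146a-5p and miR-150-5p are positive with DN 2 and negative without it, while miR-204-5p and both miR-802 arms stay near the line.

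The weight of DN 2 reached beyond leukocyte miRNAs. The sign of the fold change differed between the fits for 95 of 424 miRNAs, and 25 shifted by more than 1 on the log2 scale, all 25 towards higher values with DN 2. miR-130b-3p was 5.685 to 9.744 CPM in control, 5.158 to 9.403 CPM in 5 DN libraries and 117.3 CPM in DN 2, and went from 1.67 to −0.24. miR-17-92 and its paralogs, which promote proliferation, went from 16 of 18 higher (median 0.19) with DN 2 to 8 of 18 (median −0.03) without it.

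Among miRNAs of injury and fibrosis, the median of the 16 tested was 0.54 with DN 2 (14 higher) and 0.02 without it (9 higher), so apart from DN 2 the list lay at the median of all miRNAs. miR-21a-5p, the best known of them, was higher with and without DN 2 but did not pass. It ran from 15540 through a median of 38590 to 58840 CPM in control libraries and from 28450 through 80760 to 248600 CPM in DN libraries, the last in DN 2, where it made up 26.4% of all mouse miRNA counts. Of the other DN libraries, 4 (72280 to 90050 CPM) lay above every control library, and DN 3 (28450 CPM) lay within the control range. Expressed as a log2 fold change, this was 1.35 (SE 0.440, edgeR adjusted p = 0.555) with DN 2 and 0.83 (SE 0.355, edgeR adjusted p = 0.424) without it. Its 3p arm was 1.11 higher with DN 2 and 0.44 higher without it (SE 0.230, edgeR adjusted p = 0.487). miR-214-3p, made from the same host transcript as a miR-199a hairpin, was 0.44 with DN 2, −0.47 without it and −0.95 (edgeR adjusted p = 0.0436) without DN 2 and DN 3, and miR-34a-5p, which p53 induces, was 0.39 and 0.20.

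In the kidney epithelial list more members were higher than lower. Of 28 tested with DN 2, 21 were higher, with a median log2 fold change of 0.14, against 61.8% and 0.10 for all tested miRNAs. Of 29 without DN 2, 24 were higher with a median of 0.25, against 47.5% and −0.02. Among these 29, 8 had an unadjusted p under 0.05, all 8 higher (7.73% of all tested were higher at that p), and 1, miR-204-5p, passed. Scaled by library size, 14 of 28 and 19 of 29 were higher. The summed level was 263000 to 370000 CPM in control, 276000 to 459000 CPM in 5 DN libraries and 139000 CPM in DN 2. miR-192-5p, a proximal tubule miRNA studied in diabetic kidney, was 13160 to 32650 CPM in control (median 20490), 15150 to 44570 CPM in 5 DN libraries and 5112 CPM in DN 2. All DN libraries but DN 3 and DN 2 lay above every control library. With DN 2 the log2 fold change was 0.41 (SE 0.419, edgeR adjusted p = 0.96), and it was 0.62 (SE 0.288, edgeR adjusted p = 0.448) without it. The 5p arms of the miR-30 family lay on both sides of 0 and none passed. Without DN 2, the log2 fold changes were 0.28 for miR-30a-5p, 0.23 for miR-30c-5p, 0.39 for miR-30e-5p, 0.04 for miR-30b-5p and −0.10 for miR-30d-5p. With DN 2 they were 0.11, 0.06, 0.21, −0.01 and −0.18 in that order. miR-200 family members, epithelial miRNAs that restrain Zeb1 and Zeb2, had medians of −0.01 with and 0.06 without DN 2 over 8 tested.

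**Figure D3:**
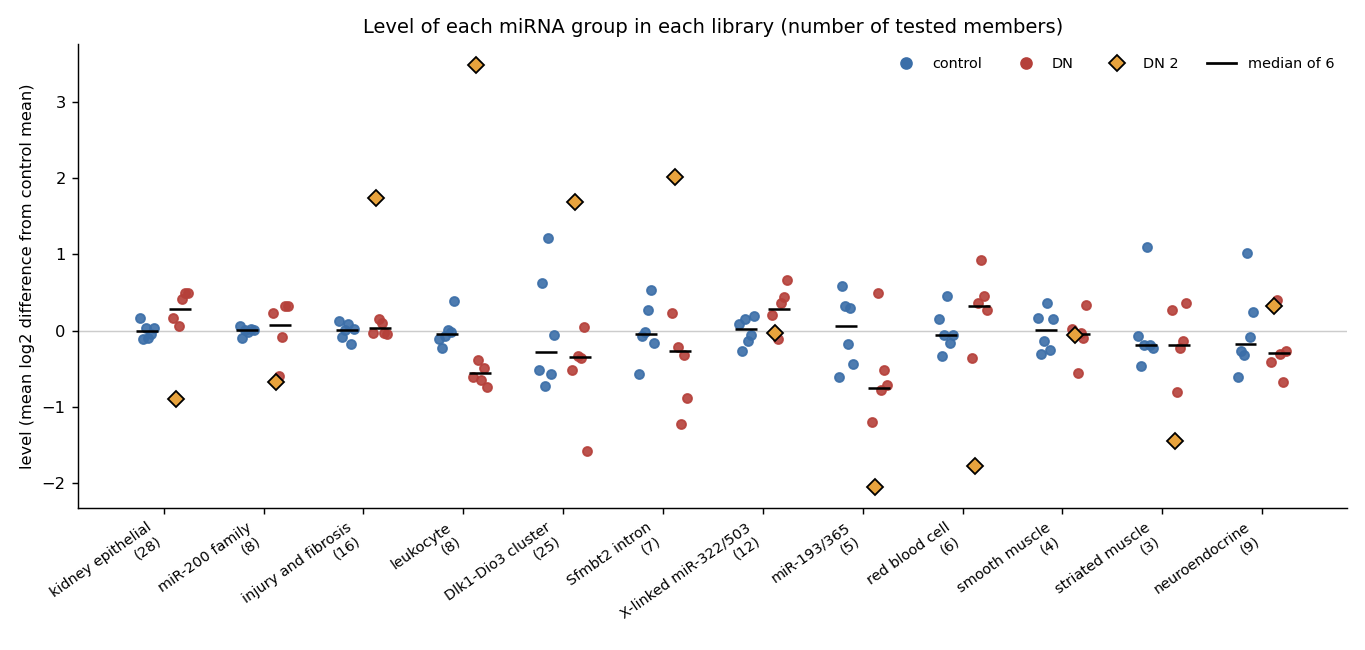
Level of 12 miRNA groups in each library (mean over tested members of the log2 difference from the mean of the 6 control libraries, y axis); numbers under the names are members tested, dots are libraries, the diamond is DN 2 and the bar is the median of 6. DN 2 is at 3.48 for leukocyte and 1.74 for injury miRNAs and at −0.89 for kidney epithelial miRNAs, outside the range of all other libraries; the other 5 DN libraries lie between −0.73 and −0.38 for leukocyte miRNAs.

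miR-193a, miR-193b and miR-365, which come from related clusters, lay below 0 throughout. All 5 tested arms were lower in both fits, with a median of −0.63 with DN 2 and −0.45 without it. miR-193a-3p ran from 154.9 through 238.9 to 289.4 CPM in control and from 57.32 through 134.9 to 181.1 CPM in DN libraries. All but DN 3 (181.1 CPM) lay below the lowest control library. DN differed from control by a log2 fold change of −0.86 (SE 0.267, edgeR adjusted p = 0.555) with DN 2 and −0.72 (SE 0.207, edgeR adjusted p = 0.207) without it, and −0.82 (edgeR adjusted p = 0.0418) without DN 2 and DN 3. The seed partner miR-193b-3p was −0.80 with DN 2 and −0.68 (SE 0.475) without it, with DN 3, at 545.6 CPM, near the top of the control range of 138.7 to 581.3 CPM. Leaving out DN 3 as well brought the list's median to −0.81.

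Other low values rested partly on single control libraries. miR-708-5p was 39.26 to 170.1 CPM in control (median 62.95) and 34.39 to 42.7 CPM in DN libraries, a narrow band. The log2 fold change was −1.06 with DN 2 (edgeR adjusted p = 0.555) and −1.09 without it (edgeR adjusted p = 0.308), and −0.69 when control 4, the highest, was left out too. Its seed partner miR-28a-5p was 0.39 higher with DN 2 and 0.45 higher without it (SE 0.181, edgeR adjusted p = 0.41), so this shared seed had members on both sides of 0. Neuronal miR-124-3p reached 376.9 CPM in control 4 against 0.9506 to 56.35 CPM in the other control libraries, and among DN libraries it was 35.85 CPM in DN 2 and at most 5.176 CPM elsewhere. Its log2 fold change of −3.31 became −1.09 without control 4 and −5.39 (edgeR adjusted p = 0.207) without DN 2. Of 25 tested members of the Dlk1-Dio3 cluster, an imprinted miRNA cluster, 12 were higher with DN 2 (median −0.01) and 1 was higher without it (median −0.67). DN 2 (1500 CPM summed over all 60 names) and control 4 both shaped this list: with DN 2 kept and control 4 left out, 23 of 25 were higher (median 0.35), and with both left out 5 of 22 were (median −0.29). The Sfmbt2 intron cluster likewise went from 6 of 7 higher (median 0.59) to 0 of 7 (median −0.42). Its summed level was 348 CPM in DN 2 against 61 to 84.9 CPM in control libraries and 27.9 to 74.4 CPM elsewhere in DN.

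**Figure D4:**
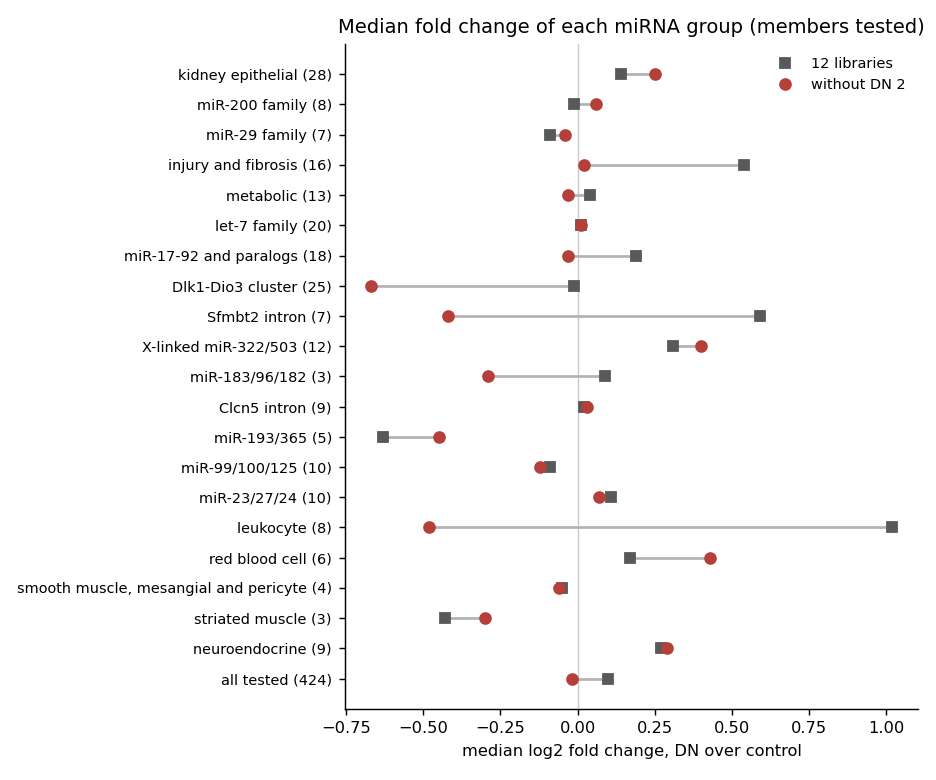
Median log2 fold change (DN over control) of the tested members of each miRNA group, with all 12 libraries (squares) and without DN 2 (red circles). The leukocyte, Sfmbt2 intron and Dlk1-Dio3 groups and the injury group move most, from 1.02 to −0.48, 0.59 to −0.42, −0.01 to −0.67 and 0.54 to 0.02; the miR-193 and miR-365 group is negative and the kidney epithelial and X-linked miR-322 groups positive in both.

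Groups that DN 2 moved little included the X-linked cluster of miR-322 and miR-503, whose members restrain the cell cycle. With and without DN 2, 9 of 12 were higher (all tested miRNAs, 61.8% and 47.5%), with medians of 0.31 and 0.40. Of the 12, miR-450a-1-3p and miR-450b-3p had identical values, and their log2 fold changes equal both medians. In this cluster miR-542-3p was 0.73 higher with DN 2 and 0.84 higher without it (SE 0.457, edgeR adjusted p = 0.487). The let-7 family, regulators of growth and differentiation, had medians of 0.01 in both fits. The miR-29 family, which represses collagens, had 3 of 7 and 2 of 7 higher, with medians of −0.09 and −0.04. Of 6 red blood cell miRNAs, 4 were higher with DN 2 (median 0.17) and 5 without it (median 0.43). DN 2 lay apart in this list, at a mean log2 difference from the control mean of −1.77. The other 5 DN libraries were at −0.36 to 0.93 and control libraries at −0.33 to 0.45. Among the 6, miR-486a-3p and miR-486b-3p had identical values, at a low mean of 3.12 CPM. Both medians equal the log2 fold change of this pair. Erythroid miR-144-3p was 34.02 to 301 CPM in control libraries, 56.69 to 710.4 CPM in 5 DN libraries, DN 3 the lowest of them, and 57.32 CPM in DN 2, with log2 fold changes of 0.95 with DN 2 and 1.16 (SE 0.566, edgeR adjusted p = 0.485) without it. miR-451a, from the same cluster, was −0.15 and −0.01 (SE 0.243). Of the 2 endothelial arms tested, miR-126a-3p was −0.20 with DN 2 and −0.09 (SE 0.223) without it, and miR-126a-5p was 0.06 and 0.19 (SE 0.465). Muscle, neuroendocrine and liver markers had no member past the threshold, and their summed CPM ranges overlapped between the groups.

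More miRNAs passed as further libraries were left out. Without DN 2 and DN 3, 23 of 436 passed (5.28%), 13 of them higher and 10 lower, and without control 2, DN 2 and DN 3, 29 of 425 did (6.82%), 19 higher and 10 lower; 22 of the 23 were among the 29. Both of these choices were made after seeing the data. The 29 held miR-204-5p (1.13), both miR-802 arms (2.59 and 3.34), miR-203b-3p (1.13), miR-21a-5p (0.86), miR-192-5p (0.69), miR-30e-3p (0.54), miR-196a-1-3p (0.83) and miR-144-3p (1.22) among those higher, as log2 fold changes. Also higher were miR-12206-5p (3.08), miR-3068-3p (1.02), miR-450b-5p (0.91), miR-340-5p (0.87), miR-455-5p (0.86), miR-3968 (0.68), miR-27b-3p (0.48) and miR-151-5p (0.44). The predicted arms mir-3535-p3 (1.55) and mir-653-p5 (1.31) were higher too. Those lower were miR-146a-5p (−1.34), miR-150-5p (−1.32), miR-155-5p (−0.99), miR-214-3p (−0.84), miR-193a-3p (−0.85), let-7b-5p (−0.68), miR-23a-3p (−0.47), miR-346-5p (−1.77), miR-574-5p (−1.11) and miR-674-5p (−0.8). Of the 23, miR-219a-2-3p (−7.84) was not among the 29.

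Arms of one hairpin are cut from the same precursor, so their fold changes were set side by side. Without DN 2, both arms lay on the same side of 0 in 87 of the hairpins with both tested (71.3%), with a Pearson r of 0.71 and a Spearman rho of 0.58 across hairpins, which are not independent and share libraries. With DN 2 the share was 63.6% of 121 (r = 0.73, rho = 0.53). The pairs farthest from 0 in the same direction were those of miR-802 (2.58 for 5p and 3.32 for 3p) and miR-204 (1.15 for both).

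**Figure D5:**
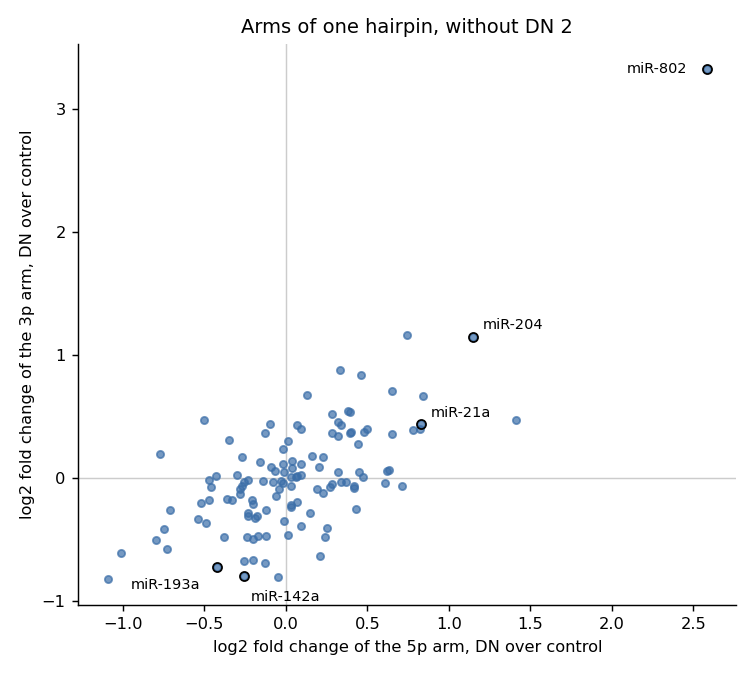
Log2 fold change (DN over control, without DN 2) of the 5p arm (x axis) and the 3p arm (y axis) of the hairpins with both arms tested, each dot a hairpin. miR-802 lies at the upper right (2.58 and 3.32) and miR-204 next to the main group (1.15 and 1.15).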

How the data were processed

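Small RNA was sequenced in 18 kidney libraries, of which the 6 control and 6 DN libraries were compared. Per the labels' protocols, RNA was extracted with Trizol, libraries came from a TruSeq Small RNA kit and were read on a HiSeq, and reads were filtered with ACGT101-miR. The submitters' processing notes name Trimmomatic 0.32, BWA, SAMtools and edgeR. Neither a genome build nor a miRBase release was given in the sources used here. Estimated counts were deposited by the authors in the raw columns, 1 value per entry, whole in 76.9% of values above 0; they were rounded. In rows repeated with identical values, 65.3% of values with decimals became whole when multiplied by the number of rows, so the levels of such miRNAs are per row. The normalized columns deposited by the authors were a signal that differed from the raw value by a single factor for each library (0.6644 to 1.247 over the 12) and were not tested.

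Entries without a name (350) and of other species (370) were left out, as were repeat rows of 1 name: 53 names had more than 1 row, identical for 47 and different for 6. Some pairs had identical values in all 12 libraries, so the members of each cannot be told apart. Among them were let-7a-5p and let-7c-5p, miR-99a-5p and miR-100-5p, and miR-199a-5p and miR-199b-5p. Others were miR-486a-3p and miR-486b-3p, and miR-450a-1-3p and miR-450b-3p. Both members of a pair were counted in the lists. edgeR 4.0.16 (R 4.3.3) fitted TMM-scaled counts with its quasi-likelihood test and Benjamini-Hochberg adjustment, after a filter of a minimum count of 10 in enough libraries and 15 in total. This kept 424 names with 99.971% of counts, and 427 without DN 2. CPM values are scaled by TMM; correlations and group levels used log2 CPM with a prior count of 2. Named miRNAs are those past the threshold, or up to 6 of smallest p in each direction, the 8 most moved by DN 2, the 5 most abundant per group, the 3 most abundant of each list and miR-21a-5p, miR-192-5p, miR-204-5p, miR-802-5p, miR-223-3p and miR-188-3p; others were named after their values were seen. The members and lists were chosen with earlier results of these data known. Alternatives were DESeq2 1.42.0, limma-voom (limma 3.58.1) with sample weights, an exact rank-sum test, other scalings, filters, row rules, all 18 libraries, a replicate block and leaving out each library. Scripts were tested on simulated data.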

Additional observations from a re-analysis of the deposited data

Results flagged for a closer look

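In a group of 6 libraries, a value was noted where its gap to the nearest other was large for the group's range. Chance does this in about 1 of 20 groups picked without regard to their values. It happened in 15 of 94 (16.0%), 11 of them in DN 2. Some of these miRNAs were named because DN 2 moved them most, so this count cannot be set against that rate. DN 2 was high for miR-223-3p (6717 CPM, others at most 170.9), miR-146a-5p (15220, others at most 1561), miR-150-5p (1752, others at most 162.8), miR-142a-3p (2139, others at most 153), miR-23a-3p (20610, others at most 9330) and miR-130b-3p (117.3, others at most 9.403). It was low for miR-203b-3p (5.942 CPM, others at least 76.3) and miR-12206-5p (0 CPM, others at least 9.672). As a mean log2 difference from the control mean, DN 2 was at 3.48 for leukocyte miRNAs, 1.74 for injury and fibrosis miRNAs and −0.89 for kidney epithelial miRNAs. Control 2 was low for miR-802-5p (4.481 CPM, other controls at least 38.03) and for the metabolic list (−0.73). Control 4 was high for striated muscle miRNAs (1.1), and DN 1 was at 0 CPM for miR-188-3p, where the other DN libraries held 2.149 to 4.74 CPM.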

How the results depend on the processing

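With all 12 libraries the count of miRNAs past the threshold was 0 under edgeR and stayed there under other scalings, filters, row rules and the fit of all 18 libraries; it was 2 with DESeq2, 36 with limma-voom sample weights, and 29 without control 2, DN 2 and DN 3. Leaving out 1 library at a time gave 0 to 3, and 3 came without DN 2. Without DN 2 the count was 3; it was 5 with no filter, 6 with edgeR's newer method, 11 with DESeq2, 40 with limma-voom sample weights and 0 with the exact rank-sum test. Leaving out a further library gave 2 to 23, the 23 without DN 3. In the rank-sum test miR-204-5p, miR-146a-5p and miR-150-5p had an adjusted p of 0.264 each, and 36 miRNAs had an unadjusted p under 0.05. With 6 against 5 libraries, its smallest possible p passes the adjustment only if many miRNAs separate the groups completely. Few did (1.41% of 427, on CPM scaled by the TMM factors of all 12 libraries), so its count of 0 cannot weigh these calls.

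Libraries with the same number showed no pairing in the labels, and 5 of 6 number pairs had correlated deviations above 0.1 (r from −0.058 to 0.332), but 0 of 6 DN libraries correlated best with their own number. With a replicate block the count was 0 with DN 2 and 4 without it, 3 higher and 1 lower: both miR-802 arms were added and miR-150-5p was lost (adjusted p = 0.0935).

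Of the 8 miRNAs named because DN 2 moved them most, miR-124-3p (−3.31 with DN 2 and −5.39 without it) stayed negative in all settings run, and the other 7 changed sign. With sample weights and without control 2, DN 2 and DN 3, in that order, the log2 fold change was −0.37 and −0.56 for miR-223-3p, −1.22 and −1.34 for miR-146a-5p, −1.26 and −1.32 for miR-150-5p, −0.73 and −0.83 for miR-142a-3p, −0.32 and −0.39 for miR-130b-3p, −0.77 and −0.99 for miR-155-5p, and −1.26 and −1.46 for miR-382-5p. With the replicate block it was −0.78 for miR-146a-5p, −0.72 for miR-150-5p, −0.42 for miR-142a-3p, −0.19 for miR-155-5p and −0.45 for miR-382-5p. Beside the rank-sum test, which gives no fold change, the difference between group means of log2 CPM was computed, a measure unlike edgeR's fold change. This difference was −0.68 for miR-146a-5p, −0.6 for miR-150-5p, −0.0895 for miR-155-5p and −0.55 for miR-382-5p. With 1 library left out at a time the range was −0.2 to 3.56 for miR-223-3p, −1.29 to 0.47 for miR-146a-5p, −1.24 to 0.6 for miR-150-5p, −0.79 to 1.74 for miR-142a-3p, −0.24 to 1.88 for miR-130b-3p, −0.62 to 1.19 for miR-155-5p, −1.37 to 0.81 for miR-382-5p and −0.55 to 0.11 for miR-188-3p, which is near the detection floor. In the fit without DN 2 it was −0.44 to 0.00942 for miR-223-3p and −0.59 to 0.0753 for miR-188-3p. Sample weights gave miR-188-3p 0.25 with DN 2 and 0.26 without it. The cause of these changes was not tested, beyond the libraries left out. At 6 against 6 libraries, a missed threshold does not show that levels were equal.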

Other observations

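Control 2 and DN 3 departed from their groups in the same way. Over 424 tested miRNAs, the deviation of control 2 from the control mean and that of DN 3 from the mean of the DN libraries without DN 2 had a Pearson r of 0.77, the highest of 30 control and DN pairs (the next was 0.46 and the lowest −0.56), and 81.1% of miRNAs deviated to the same side. This pair was singled out after its values were seen. Both libraries were low in miR-126a-5p, an endothelial miRNA (1622 CPM in control 2 and 2167 CPM in DN 3, other controls 5604 to 11440 and other DN libraries 9593 to 12130), in miR-144-3p and in miR-802-5p. Both were high in miR-320-3p (3589 and 3788 CPM, others at most 2144), miR-423-5p (1267 and 1210 CPM, others at most 768.6) and miR-744-5p (1475 and 1907 CPM, others at most 869.4). Across the 356 miRNAs with a sequence, the share of G and C bases correlated with the deviation of control 2 at r = 0.59 and of DN 3 at r = 0.51, and with that of DN 2 at 0.08; with the log2 fold change of DN over control it was −0.22 in both fits. The part of base composition in the comparison was not tested. The miRNA miR-205-5p, known from stratified epithelia, ranged from 0 to 1014 CPM among the control libraries other than control 2, which held 786.3 CPM.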
